A study of Mus musculus with 36 samples.

Results

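The comparison set lymphoid-primed multipotent progenitors (LMPP) taken from the central nervous system (CNS) of mice with leukaemia against LMPP from the bone marrow (BM) of the same mice. The libraries were chosen by their labels for tissue, disease state, cell type and mouse: 4 CNS and 4 BM libraries, which are 8 of the 36 in the series, with 1 of each from every one of 4 mice, called mice 1 to 4 here. All 4 mice carried the fusion Kmt2a-AFF1 and overexpressed a microRNA, so CNS and BM share both, and cells were sorted when leukaemia was terminal. LMPP were gated as lineage negative, c-Kit positive, Sca-1 positive and Flt3 positive. Neither the promoter of the fusion, nor the age of the mice, nor the CNS compartment sampled is given in the labels. Leukaemia cells of 2 other gates are used below for comparison, and they also enter the background filter and the spread of the test. These are HSC/MPP (Sca-1 positive, Flt3 negative) and LK/CLP (Sca-1 negative), each from CNS and BM of another 4 mice of the same genotype and disease state. Non-leukaemic control LMPP came from the BM of 4 mice with the fusion and a scrambled microRNA.

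The sample labels name the overexpressed microRNA miR-130b and the series text names miR-130a. The mature 3p sequences of both are shown because the choice between the names bears on what all 8 libraries share. They are RefSeq entries on GRCm38.p6, at chr16:17124071-17124092 for miR-130b and chr2:84741116-84741137 for miR-130a, both on the minus strand. Capitals mark the seed, bases 2 to 8, which pairs with targets.
mmu-miR-130b-3p: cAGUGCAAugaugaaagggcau
mmu-miR-130a-3p: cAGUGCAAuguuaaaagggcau
The seed is the same in both, and over their 22 bases they differ at 2 positions, U11A and A13G, counted from the 5′ end with the base of miR-130a first.

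KMT2A fusions occur in infant leukaemia, in which spread to the CNS is common. LMPP are progenitors that can form lymphoid, myeloid and dendritic cells. Type 1 conventional dendritic cells, which need the transcription factors Batf3, Irf8 and Id2, take up dead cells and present their antigens. Plasmacytoid dendritic cells, which depend on Tcf4, respond to viral nucleic acids. MHC class II molecules present peptides from endosomes to helper T cells, and their genes are switched on together by the coactivator Ciita.

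Libraries held 8445986 to 24150503 counts in CNS LMPP and 1909638 to 30442297 in BM LMPP, with the fewest in BM of mouse 3. Counts spread evenly over the genome, estimated from sensory receptor genes, made up 0.384 to 8.23% of counts in CNS and 0.694 to 6.13% in BM. Levels are CPM, counts scaled to a common library total, over the 16099 genes above that background, and they are not divided by gene length. The gate's own genes did not separate the tissues. The CNS over BM log2 fold change (± SE, n = 4 pairs) was 0.21 ± 0.20 for Flt3, 0.21 ± 0.18 for Kit and 0.32 ± 0.25 for Ly6a. Their edgeR adjusted p were 0.83, 0.80 and 0.761, and Ly6a encodes Sca-1. Each SE, here and below, is the size of the fold change over the square root of the F statistic of the edgeR fit. The spread in that fit is shared over the 24 leukaemia libraries, so the SE is not that of the 4 pairs alone. Of these libraries, 3 from BM and 1 from CNS stood apart. BM of mouse 1 was rich in mature neutrophil genes, at 5049 CPM summed over 15 genes whereas the CNS libraries had 19.7 to 52.9 CPM and the remaining BM libraries 23.3 to 50.1 CPM. BM of mouse 2 resembled CNS in many of the genes described below, BM of mouse 3 had few counts, and CNS of mouse 4 had the highest level of cell cycle genes among the CNS libraries.

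In LMPP, 252 genes were higher and 53 lower in CNS than in BM at an adjusted p under 0.05, which is 1.57% and 0.329% of the 16099 genes tested, and 1.89% in either direction. Of all genes tested, 51.4% had a log2 fold change above 0 and 48.6% one below 0. The test was edgeR's quasi-likelihood test with the mouse as a block and Benjamini-Hochberg adjustment. The median log2 fold change of all genes tested was 0.01. In bulk RNA, more cells of a kind and more RNA per cell cannot be told apart, so "rose" and "fell" refer to the RNA of the sorted pool. These calls rest on the pairing and on a spread shared over the 24 leukaemia libraries: edgeR called 0 genes without the mouse block, from the 8 LMPP libraries alone, without mouse 1, without mouse 3 and without the LK/CLP libraries, with 1324, 1825, 1596, 1204 and 1615 genes at an unadjusted p under 0.05. In each of those fits all 305 genes had the direction reported here, and DESeq2 called 850 genes, which included the 305. Those fits reuse the same LMPP libraries. Since 251 of the 252 and 53 of the 53 had 1 direction in 4 of 4 mice, the shared direction was largely fixed in advance. For a single gene, an exact paired permutation test over 4 mice cannot give a two-sided p below 0.125.

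**Figure D1:**
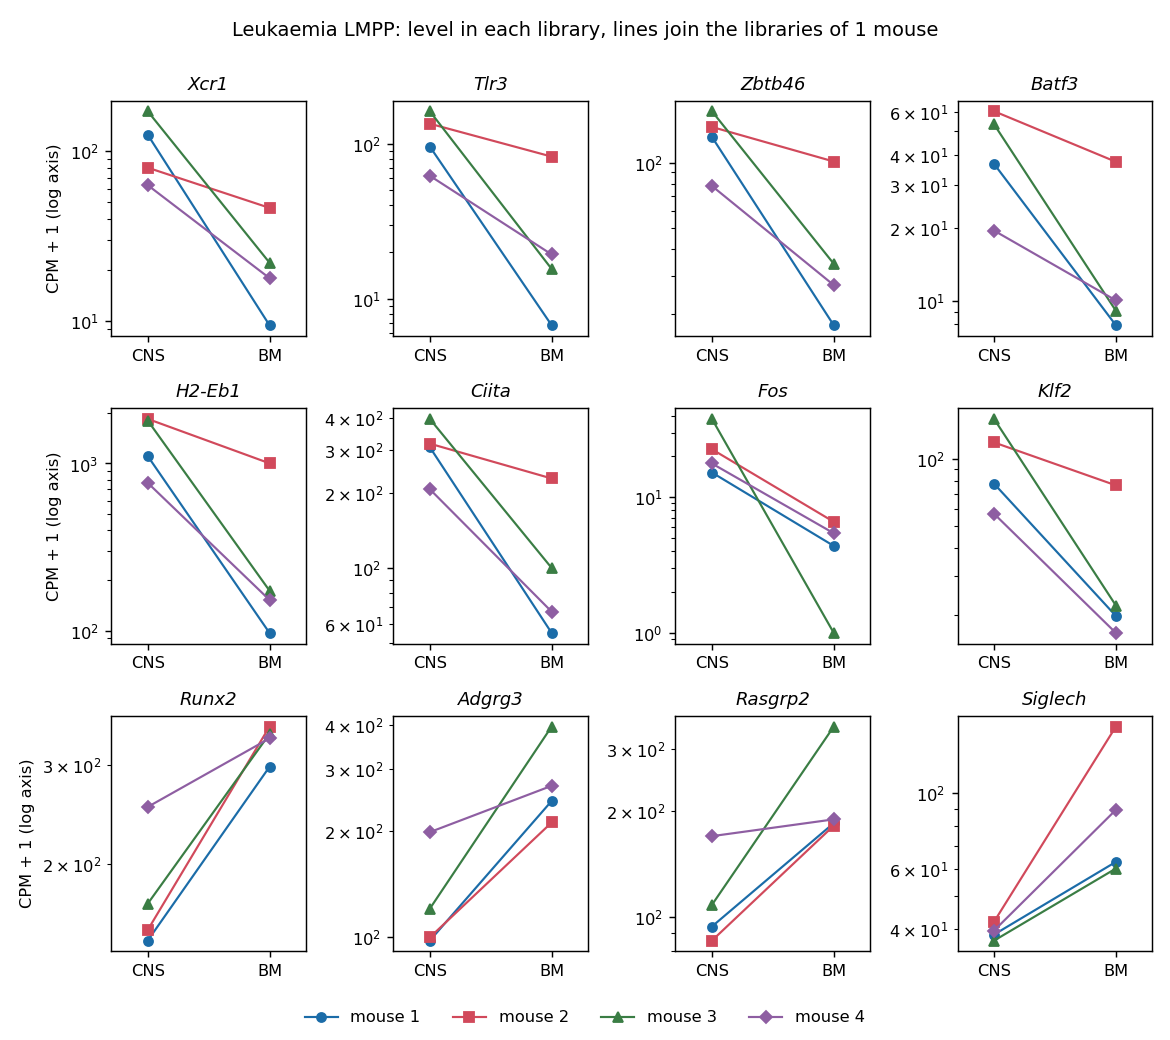
Levels of 12 genes in each leukaemia LMPP library, as CPM + 1 on a log axis, CNS on the left and BM on the right, with a line joining the libraries of each of the 4 mice. The top 8 genes were higher in CNS in 4 of 4 mice and the bottom 4 lower in 4 of 4. BM of mouse 2 had the highest BM level of the top 8, at 1001.5 CPM for H2-Eb1 against 95.7 to 172 CPM in BM of the other mice.

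Genes of type 1 conventional dendritic cells were higher in CNS. Of 20 genes listed, 19 were above background. Of these, 13 rose (68.4%, against 1.57% of all genes), 0 fell and 6 did not pass the test. The median log2 fold change of the 19 was 1.73. Xcr1, the chemokine receptor that marks these cells, had 124, 79.0, 171 and 62.1 CPM in CNS of mice 1 to 4, against 8.42, 45.4, 21.0 and 16.9 CPM in their BM. Every CNS library lay above every BM library, and the log2 fold change was 2.35 ± 0.46 (edgeR adjusted p = 0.0233). Tlr3, which senses double-stranded RNA, had 94.95, 134, 161 and 61.2 CPM in CNS against 5.74, 81.6, 14.6 and 18.3 CPM in BM (2.37 ± 0.48, edgeR adjusted p = 0.0253). Here the groups overlapped, since BM of mouse 2 was above CNS of mouse 4. Hepacam2, an adhesion protein of the immunoglobulin family, was low in BM, at 1.55 to 6.37 CPM, and reached 15.2 to 35.5 CPM in CNS, a log2 fold change of 3.02 ± 0.65 (edgeR adjusted p = 0.0295).

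The transcription factors of this lineage did not move alike. Batf3 had 35.7, 59.4, 52.4 and 18.5 CPM in CNS of mice 1 to 4, against 6.92, 36.4, 8.09 and 9.03 CPM in BM (log2 fold change 1.61 ± 0.38, edgeR adjusted p = 0.0449). Id2, which blocks E proteins, rose by 1.57 ± 0.29 (edgeR adjusted p = 0.0201) and Zbtb46, a factor of conventional dendritic cells, by 1.82 ± 0.37 (edgeR adjusted p = 0.0252). Irf8 was already abundant in BM: it had 1400, 1565, 1910 and 1310 CPM in CNS against 968, 1682, 725 and 1135 CPM in BM. Its log2 fold change of 0.50 ± 0.26 did not pass the test (edgeR adjusted p = 0.496), and it was lower in CNS in mouse 2. Clec9a, the receptor for dead cells, was higher in 4 of 4 mice by 1.14 ± 0.28 but fell just short of the threshold (edgeR adjusted p = 0.0534).

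Of the genes that serve antigen handling in these cells, Wdfy4, which is needed for cross-presentation, was the most abundant. It had 2457, 3832, 3265 and 2096 CPM in CNS against 821, 2847, 1176 and 999 CPM in BM (1.14 ± 0.27, edgeR adjusted p = 0.0452). Naaa, a lysosomal acid amidase, rose by 2.30 ± 0.41, and Rab7b, a GTPase of endosomes, by 1.91 ± 0.32. Sept3 (2.21 ± 0.41), Snx22 (2.05 ± 0.38), Gcsam (2.02 ± 0.41) and Ifi205 (1.73 ± 0.29) rose as well, and all of these were higher in 4 of 4 mice. Outside the list, and picked after their values were seen, Mycl, a Myc relative known from conventional dendritic cells, rose by 1.62, the endocytic receptor Ly75 (DEC-205) by 1.11 and the inhibitory receptor Btla by 1.62 on the log2 scale.

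**Figure D2:**
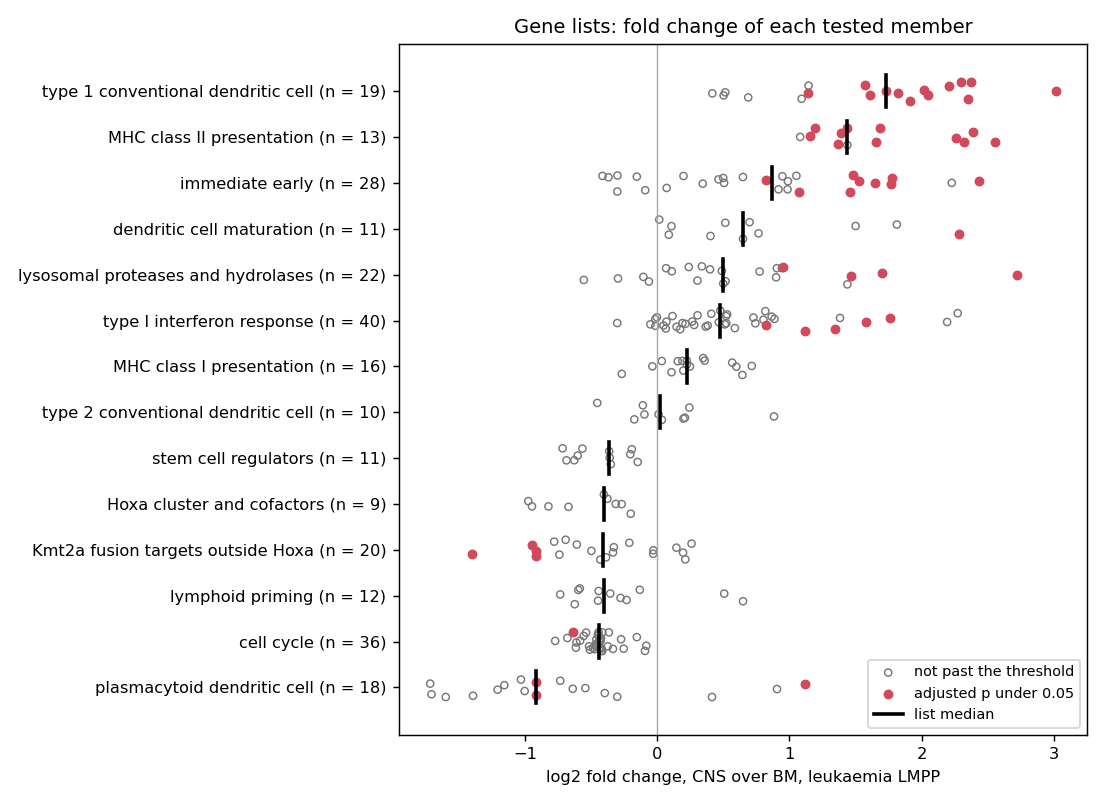
The log2 fold change of CNS over BM in leukaemia LMPP for each tested member of 14 gene lists. Filled points passed an adjusted p of 0.05, open points did not, and black bars are list medians, from 1.73 for type 1 conventional dendritic cell genes to -0.92 for plasmacytoid dendritic cell genes.

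MHC class II genes were higher in CNS over the whole pathway, from the coactivator to the peptide loading machinery. Of 14 genes listed, 13 were above background, and 11 of these rose (84.6%, against 1.57% of all genes), with a list median of 1.44. Ciita had 306, 316, 397 and 207 CPM in CNS of mice 1 to 4, against 54.1, 229, 99.4 and 66.1 CPM in BM (1.65 ± 0.36, edgeR adjusted p = 0.0318). The groups overlapped only through BM of mouse 2, which exceeded CNS of mouse 4. H2-Eb1, a beta chain of the class II molecule, had 1107, 1848, 1807 and 765 CPM in CNS, against 95.7, 1002, 172 and 151 CPM in BM (2.55 ± 0.44, edgeR adjusted p = 0.0195). The alpha chain H2-Aa rose by 2.26 ± 0.39, the beta chain H2-Ab1 by 2.39 ± 0.42 and the invariant chain Cd74 by 2.32 ± 0.41, each in 4 of 4 mice. Both chains of H2-DM, which loads peptides, rose, H2-DMa by 1.19 ± 0.24 and H2-DMb1 by 1.68 ± 0.30. H2-DMb2, a near-identical neighbour of H2-DMb1 that may share its reads, rose by 1.39 ± 0.30.

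H2-O, the inhibitor of H2-DM, showed the same direction. Its chain H2-Oa had 22.8, 26.2, 39.7 and 20.2 CPM in CNS against 6.81, 18.6, 18.6 and 8.17 CPM in BM, with no overlap (1.16 ± 0.28, edgeR adjusted p = 0.0477), and H2-Ob had a fold change of 1.08 ± 0.27 that missed the threshold (edgeR adjusted p = 0.0569). Ifi30, a thiol reductase of endosomes, rose by 1.37 ± 0.25. March1, a ligase that removes class II from the surface, rose by 1.44 ± 0.33. Ctss, the protease that trims the invariant chain, had a fold change of 1.44 ± 0.40 and did not pass (edgeR adjusted p = 0.081). Summed over the list, levels were 10725, 17038, 16457 and 7217 CPM in CNS, against 1320.1, 9739.7, 1997 and 1948 CPM in BM of mice 1 to 4. MHC class I genes formed no such group: 14 of 16 had a positive fold change, the median was 0.22, and 0 passed the test.

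The class II promoters are shown because their genes rose together. The sequences are RefSeq entries on GRCm38.p6 and cover the 120 bases before the gene start, 5′ to 3′ along the gene. Capitals mark TGATTGG, an inverted CCAAT core as found in the Y box of class II promoters, where the factor NF-Y is known to bind. H2-Aa lies at chr17:34287824-34287943 on the minus strand, H2-Eb1 at chr17:34305747-34305866, H2-DMb1 at chr17:34153071-34153190 and H2-DMb2 at chr17:34145129-34145248, the last 3 on the plus strand.
H2-Aa: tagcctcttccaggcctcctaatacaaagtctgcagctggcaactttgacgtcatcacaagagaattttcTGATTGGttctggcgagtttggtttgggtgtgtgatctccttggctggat
H2-Eb1: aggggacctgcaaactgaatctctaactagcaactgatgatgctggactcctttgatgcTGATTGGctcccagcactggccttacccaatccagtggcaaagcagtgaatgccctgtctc
H2-DMb1: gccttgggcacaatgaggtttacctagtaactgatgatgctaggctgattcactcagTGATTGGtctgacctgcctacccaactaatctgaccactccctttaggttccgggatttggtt
H2-DMb2: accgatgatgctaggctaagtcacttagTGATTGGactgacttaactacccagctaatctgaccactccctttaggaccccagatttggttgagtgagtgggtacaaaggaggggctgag
The core began 50, 61, 63 and 92 bases before the start of H2-Aa, H2-Eb1, H2-DMb1 and H2-DMb2. Searched on both strands, it was present in 7 of the 10 listed class II genes that have a promoter entry, and in 5.15% of all 32851 promoter entries over the same 120 bases. The genes with the core included H2-Ob, which missed the threshold, and H2-Eb2, which was below the background filter. H2-DMa and Ifi30, which rose, lacked it, as did Ctss. H2-Ab1, Cd74, Ciita and March1, which rose, had no promoter entry. Whether the core goes with the rise was not tested. A match describes the letters and not a bound site.

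Plasmacytoid dendritic cell genes went the other way. Of 18 members above background, 3 had a positive log2 fold change, the median was -0.92, 2 fell (Runx2 and Zeb2) and 1 rose (Irf7). The falls were 11.1% and the rise 5.56% of these members, against 0.329% and 1.57% of all genes. Tcf4 had 145, 142, 176 and 232 CPM in CNS of mice 1 to 4, against 224, 284, 294 and 266 CPM in BM, and its fold change of -0.64 ± 0.16 was just short of the threshold (edgeR adjusted p = 0.0524). Siglech, a surface lectin of these cells and of microglia, had 37.4, 40.9, 35.9 and 38.5 CPM in CNS against 61.8, 156, 59.0 and 88.2 CPM in BM. Its groups did not overlap, yet the test did not pass (-1.16 ± 0.43, edgeR adjusted p = 0.238). Irf7, which drives interferon genes, and Tlr9, a DNA sensor, were exceptions: Irf7 rose by 1.12 ± 0.26 (edgeR adjusted p = 0.0431) and Tlr9 had a fold change of 0.91 ± 0.23 (edgeR adjusted p = 0.0569). Genes of type 2 conventional dendritic cells had a median of 0.02 over 10 members, with 0 called. Of the maturation genes, all 11 had a positive fold change but only Cd83, a marker of activated dendritic cells, passed (2.29 ± 0.47, edgeR adjusted p = 0.0267).

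Immediate early genes, which are transcribed within minutes of a stimulus and also during cell handling, formed the next group. Of 28 members, 9 rose (32.1%, against 1.57% of all genes), 0 fell and the median was 0.87. Jun had 36.1, 52.2, 59.9 and 68.9 CPM in CNS of mice 1 to 4, against 17.4, 31.2, 15.4 and 13.9 CPM in BM, with no overlap (1.48 ± 0.32, edgeR adjusted p = 0.0291). Junb rose by 1.53 ± 0.22 and Ier5 by 1.78 ± 0.25, both with an edgeR adjusted p of 0.0124 and without overlap between the groups. The zinc finger factor Klf2 (1.77 ± 0.32), the phosphatase gene Dusp1 (1.65 ± 0.40), the growth inhibitor Btg2 (1.46 ± 0.30), Jund (1.07 ± 0.26) and the mRNA decay factor Zfp36 (0.82 ± 0.19) also rose. Fos had 36.8 CPM in CNS of mouse 3 and 0 counts in its shallow BM library, so it was at least 15.2-fold higher there, against the level that 3 counts would give. Myc, in the same list, had 156, 170, 187 and 312 CPM in CNS against 263, 178, 258 and 299 CPM in BM (-0.30 ± 0.21, edgeR adjusted p = 0.699).

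Heat shock genes did not move as a group. Their median was 0.06 over 19 members, of which 2 rose (10.5%, against 1.57% of all genes). These were the near-identical pair Hspa1b (2.12 ± 0.30) and Hspa1a (1.69 ± 0.33), whose reads may be shared. Constitutive chaperones differed little, with 0.29 ± 0.26 for Hspa8 and -0.15 ± 0.26 for Hsp90ab1, and neither passed. Of the 18 tested genes of the NF-kB list, Nfkb2 (1.13 ± 0.25) and Bcl3 (1.05 ± 0.25) rose (11.1%, against 1.57% of all genes). Both were without overlap between CNS and BM. Nfkbia, the inhibitor of NF-kB, had a fold change of 0.23 ± 0.18 and Nfkb1 one of 0.10 ± 0.20.

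Type I interferon response genes leaned higher, with a positive fold change in 35 of 40 members and a median of 0.47. The 5 that rose (12.5%, against 1.57% of all genes) were Irf7, Stat2 (0.82 ± 0.19), Zbp1 (1.34 ± 0.26), Slfn5 (1.76 ± 0.29) and Ifi204 (1.58 ± 0.32), and 0 fell. Zbp1, a sensor of nucleic acids, had 47.9, 44.4, 49.4 and 28.3 CPM in CNS against 14.3, 22.7, 8.89 and 18.5 CPM in BM, with no overlap. Within mice the list median was 0.73, 0.41, 0.97 and -0.08 (log2 ratio of CPM + 1), so mouse 4 did not share the direction. GTPases induced by interferon gamma had a median of -0.10 over 14 members, with 0 called, although both chains of the interferon gamma receptor rose, Ifngr1 by 1.18 ± 0.27 and Ifngr2 by 1.11 ± 0.22.

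Of 22 lysosomal genes, 4 rose (18.2%, against 1.57% of all genes) and 0 fell. The 4 were the protease inhibitor Cst3 (1.70 ± 0.35), the saposin precursor Psap (1.46 ± 0.33), Cd68 (0.95 ± 0.23) and the protease Lgmn. Lgmn had 57.3, 32.3, 26.9 and 11.1 CPM in CNS of mice 1 to 4, against 4.13, 6.50, 2.43 and 3.41 CPM in BM. CNS lay above BM without overlap, and mouse 4 had the lowest CNS level (2.73 ± 0.51, edgeR adjusted p = 0.0209). Cathepsin B (Ctsb, 0.34 ± 0.27) and progranulin (Grn, 0.49 ± 0.25) did not pass.

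Some receptors and ligands for migration and adhesion rose. Of 16 chemokine receptor and chemokine genes tested, 3 rose (18.8%) and 0 fell. The 3 were Ccl6, Ccr2, which is also in the monocyte list, and Xcr1, given above with the type 1 conventional dendritic cell genes. Of 24 integrin and adhesion genes tested, 1 rose (4.17%) and 0 fell. Over all genes tested, 1.57% rose. Ccr2, the receptor through which monocyte chemokines act, had 184, 146, 254 and 118 CPM in CNS of mice 1 to 4, against 75.9, 103, 30.7 and 48.5 CPM in BM, with no overlap (1.43 ± 0.28, edgeR adjusted p = 0.0234). The chemokine Ccl6 (1.60 ± 0.26), the integrin chain Itgav (0.92 ± 0.19) and the semaphorin coreceptor Nrp1 (1.46 ± 0.23) rose as well. Cxcr4, the receptor for the marrow chemokine Cxcl12, had 38.9, 106, 62.2 and 79.6 CPM in CNS against 114, 161, 88.1 and 104 CPM in BM. It was lower in CNS in 4 of 4 mice without passing the test (-0.76 ± 0.19, edgeR adjusted p = 0.0596). Itga4, the alpha chain of VLA-4, had a fold change of -0.09 ± 0.23.

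Other genes with the smallest p or largest rises had varied roles. Cytip, which binds cytohesin in leukocytes, had 117, 338, 195 and 114 CPM in CNS against 41.6, 189, 46.9 and 50.5 CPM in BM (1.36 ± 0.18, edgeR adjusted p = 0.0124). Fgl2, a secreted fibrinogen-like protein of macrophages and T cells, rose by 1.86 ± 0.27, the collagen VI receptor Antxr2 by 1.57 ± 0.23, the brain creatine kinase Ckb by 2.29 ± 0.40 and the interleukin-13 receptor chain Il13ra1 by 2.68 ± 0.64. Slfn1, Myadm and the ubiquitin ligase gene Rnf145 rose by 2.32 ± 0.45, 1.54 ± 0.24 and 1.09 ± 0.16. Of metabolic genes, the lipid droplet coat Plin2 (1.42 ± 0.25) and the phosphofructokinase Pfkp (0.76 ± 0.16) rose, whereas the medians of the oxidative phosphorylation, cholesterol synthesis and hypoxia lists were 0.07, 0.20 and 0.07.

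In the BCL2 family, 1 gene rose and 1 fell of 14 tested (7.14% each), against 1.57% and 0.329% of all genes. The list leaned higher, with a positive fold change in 11 of the 14 and a median of 0.55. In 4 of 4 mice, 11 were higher and 1 was lower, against 11.8% and 8.98% of all genes. Bmf, which promotes cell death, had 37.0, 71.6, 65.5 and 26.0 CPM in CNS of mice 1 to 4, against 6.92, 53.8, 4.85 and 7.92 CPM in BM (1.85 ± 0.37, edgeR adjusted p = 0.0245). Bcl2, which protects cells, had 81.4, 64.5, 85.6 and 159 CPM in CNS against 191, 119, 230.4 and 192 CPM in BM (-0.95 ± 0.20, edgeR adjusted p = 0.0291). Each mouse showed both differences. Mcl1, another protective member, had a fold change of 0.91 ± 0.25 (edgeR adjusted p = 0.0825).

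The genes that fell changed less than those that rose: the median log2 fold change was -0.88 over the 53 that fell and 1.33 over the 252 that rose. Adgrg3, an adhesion G protein-coupled receptor of leukocytes, had 96.5, 98.5, 119 and 197 CPM in CNS of mice 1 to 4, against 242, 209.9, 394 and 267 CPM in BM (-1.14 ± 0.19, edgeR adjusted p = 0.0181). Arap2, a GTPase-activating protein of Arf, had 33.9, 32.4, 57.9 and 66.3 CPM in CNS, against 93.1, 74.6, 137 and 104 CPM in BM (-1.13 ± 0.18, edgeR adjusted p = 0.0178). Rasgrp2, an exchange factor for Rap1, had 92.8, 84.5, 107 and 168 CPM in CNS against 183, 180.3, 345 and 188 CPM in BM (-0.98 ± 0.19, edgeR adjusted p = 0.0238). In each of these genes, CNS lay below BM without overlap, and CNS of mouse 4 came closest to BM. The transferrin receptor Tfrc fell by 0.99 ± 0.22, the lipoprotein receptor Lrp8 by 0.91 ± 0.17, the lipid transfer protein gene Tex2 by 0.92 ± 0.18, and Il12a, the p35 chain of interleukin-12, by 0.86 ± 0.16. Neil3, a DNA glycosylase, Pidd1, a p53 target, Mgst2, Zfp507, Mirt1, Drc7 and Myo18b fell by 0.84 to 0.98.

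All 36 cell cycle genes had a negative fold change, with a median of -0.44. Of these, 1 passed, the replication licensing factor Cdc6, which fell by 0.64 ± 0.15 (edgeR adjusted p = 0.0439), and 18 of the 36 were lower in 4 of 4 mice, against 8.98% of all genes. Mki67 had 723, 559, 733 and 1220 CPM in CNS of mice 1 to 4, against 1529, 749, 1280 and 1246 CPM in BM (-0.58 ± 0.27, edgeR adjusted p = 0.407). Picked after their values were seen, the mitotic factor Foxm1, the repair gene Brca1 and the replicative polymerase Pole fell by 0.76, 0.57 and 0.73 on the log2 scale. Summed over the list, CNS libraries of mice 1 to 3 had 3238, 2839 and 3154 CPM against 6030, 3735 and 5013 CPM in BM, whereas mouse 4 had 5398 CPM in CNS against 5558 CPM in BM.

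Genes bound by KMT2A fusions outside the Hoxa cluster had a median of -0.41 over 20 members. Of these, 4 fell (20%, against 0.329% of all genes): Runx2, Bcl2, Zeb2 and Dach1. The lists share genes: Runx2 and Zeb2 are also in the plasmacytoid list and Bcl2 is in the BCL2 family. Runx2 had 145, 152, 169 and 252 CPM in CNS against 297, 351, 340 and 334 CPM in BM, with no overlap (-0.92 ± 0.18, edgeR adjusted p = 0.0248). Runx2os2, annotated on the other strand of the locus, fell by 1.63 ± 0.35, and reads of the pair may be shared since no source used here states the strand setting of the counting. Hoxa genes and their cofactors were negative in 9 of 9, with a median of -0.40, and 0 passed. Hoxa9 had 127, 153, 201 and 199 CPM in CNS against 159, 176, 249.8 and 194 CPM in BM (-0.20 ± 0.17, edgeR adjusted p = 0.781). Stem cell regulators were negative in 11 of 11 with 0 called, and the lymphoid priming list had a median of -0.40 with 0 of 12 called.

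The mice did not contribute equally. Over the 252 genes that rose, the median log2 ratio of CPM + 1 in CNS over BM was 1.54, 0.58, 2.10 and 1.04 in mice 1 to 4, and 251 of them were higher in CNS in 4 of 4 mice. BM of mouse 2 had the highest of the 4 BM levels in 244 of the 252, against 26% of all genes tested, and CNS of mouse 4 the lowest of the 4 CNS levels in 233, against 39.4% of all genes. Over the 53 genes that fell, BM of mouse 2 was the lowest BM level in 31 and CNS of mouse 4 the highest CNS level in 46, against 21.4% and 25.6% of all genes. CNS and BM levels did not overlap in 43 of the 252 and 28 of the 53; over all genes tested, 1.99% had all 4 CNS levels above BM and 1.88% all 4 below. These shares describe genes that the same levels selected. The same 2 libraries stood between the tissues in the cell cycle sums, where BM of mouse 2 was the lowest BM library and CNS of mouse 4 the highest CNS library.

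**Figure D3:**
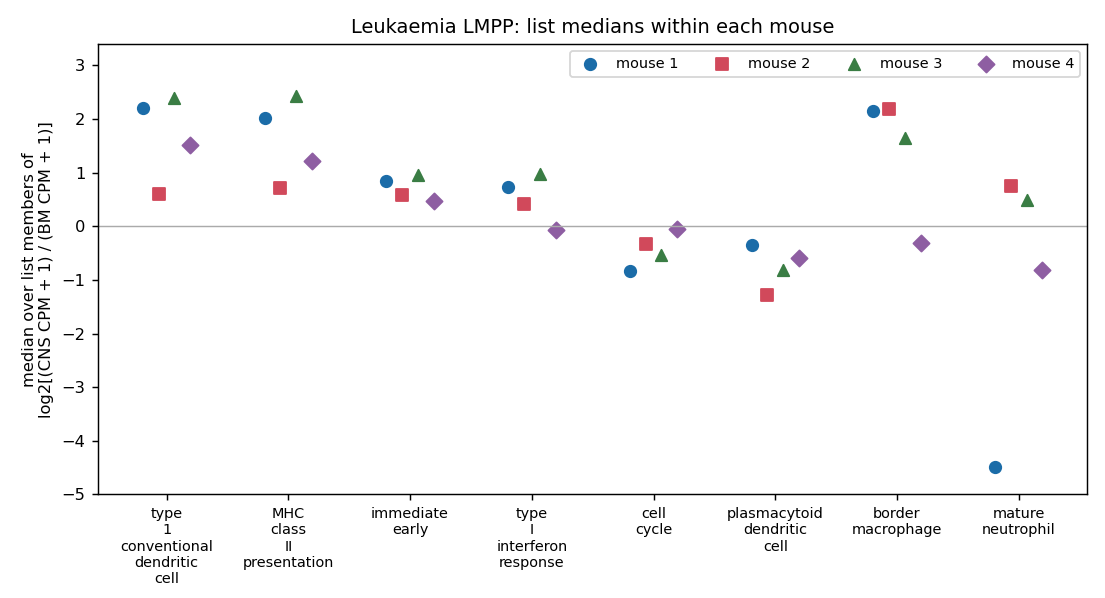
Median over the members of 8 gene lists of the log2 ratio of CPM + 1, CNS over BM, within each of the 4 mice with leukaemia LMPP. Type 1 conventional dendritic cell genes had medians of 2.21, 0.60, 2.40 and 1.52 in mice 1 to 4, and border macrophage genes were below 0 in mouse 4 only, at -0.32.

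Markers of other cells that a CNS or BM sort could hold were read beside these results. Border macrophage genes had a median fold change of 2.16 over 9 members above background, and Apoe, a lipid carrier of macrophages, had 195, 182, 140.4 and 4.74 CPM in CNS of mice 1 to 4, against 9.65, 25.2, 10.5 and 5.19 CPM in BM. It passed the test (2.82 ± 0.64, edgeR adjusted p = 0.0357), as 1 gene of that list, and was not higher in mouse 4. Mrc1 had 42.2, 30.8, 24.2 and 4.74 CPM in CNS against 3.49, 5.98, 3.23 and 5.11 CPM in BM, and Lyve1 had 1.31 to 12.1 CPM in CNS against 0.52 to 3.23 CPM in BM. In mouse 4, Apoe, Mrc1 and Lyve1 were no higher in CNS, but the sums over whole lists were: 367 CPM in CNS against 308 CPM in BM for border macrophage genes, 656 against 571 CPM for microglia genes and 620.0 against 361 CPM for monocyte genes. Sums follow the most abundant members. The median within mouse 4 (log2 ratio of CPM + 1) was -0.32 for border macrophage, -0.46 for microglia and 0.43 for monocyte genes.

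Microglia genes summed to 656 to 976 CPM in CNS against 419 to 758 CPM in BM. Their median fold change was 1.21, with 15 of 17 members positive and 0 called. Of their defining genes, Tmem119 had 5.30 to 18.1 CPM in CNS against 0.81 to 7.75 CPM in BM, P2ry12 0.98 to 12.7 CPM against 0 to 2.30 CPM, and Sall1, below the background filter, 0 to 16.4 CPM against 0.65 to 4.09 CPM. Border macrophage genes summed to 367 to 632 CPM in CNS against 227 to 546 CPM in BM. The microglia list includes genes that were abundant in BM LMPP too, such as the selectin ligand gene Selplg, with 389.7, 611, 597 and 486 CPM in CNS against 350.0, 494, 307 and 347 CPM in BM. In mouse 4, Selplg made up most of the microglia sum in both tissues. Monocyte genes had a median fold change of 0.78, with 10 of 12 members positive and 1, Ccr2, called higher. They summed to 878, 1084.5, 859.8 and 620.0 CPM in CNS of mice 1 to 4, against 1456, 615, 277 and 361 CPM in BM, so CNS was higher in mice 2 to 4 and lower in mouse 1. Their median within mice was 0.05, 0.55, 1.60 and 0.43 (log2 ratio of CPM + 1). What part macrophages, microglia or monocytes had in the dendritic cell, class II, lysosomal and immediate early differences of the 4 mice was not tested.

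Mature neutrophil genes were high in BM of mouse 1, where Ngp had 1567 CPM against 2.29 to 5.68 CPM in the CNS libraries. Neuronal genes were all below the background filter, with summed levels of 7.92 to 123 CPM in CNS against 22.9 to 75.2 CPM in BM. Defining genes of astrocytes (Gfap, Aqp4) and T cells (Cd3e, Trac) were also below it. Ttr of the choroid plexus had 13.8 CPM in CNS of mouse 1 and at most 2.53 CPM in CNS of mice 2 to 4, against 0 to 0.70 CPM in BM. No list of CNS parenchymal, endothelial, B, T or erythroid cells had a member that rose, but few members could be tested. These were 0 neuron, 3 astrocyte, 4 oligodendrocyte, 5 endothelial, 6 B, 5 T and NK and 14 erythroid genes. Medians within mice 1 to 4 (log2 ratio of CPM + 1) were 1.80, 0.57, 0.57 and -1.23 for astrocyte genes. They were 2.34, 0.45, 1.03 and -0.38 for choroid plexus and 1.78, 0.70, 2.62 and -1.78 for meningeal genes, with 3 tested in each. Oligodendrocyte and endothelial medians were mixed in sign. Tfrc, which dividing cells use as well, was the only erythroid member that fell. The growth factor receptor Pdgfrb was the only meningeal member that fell.

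**Figure D4:**
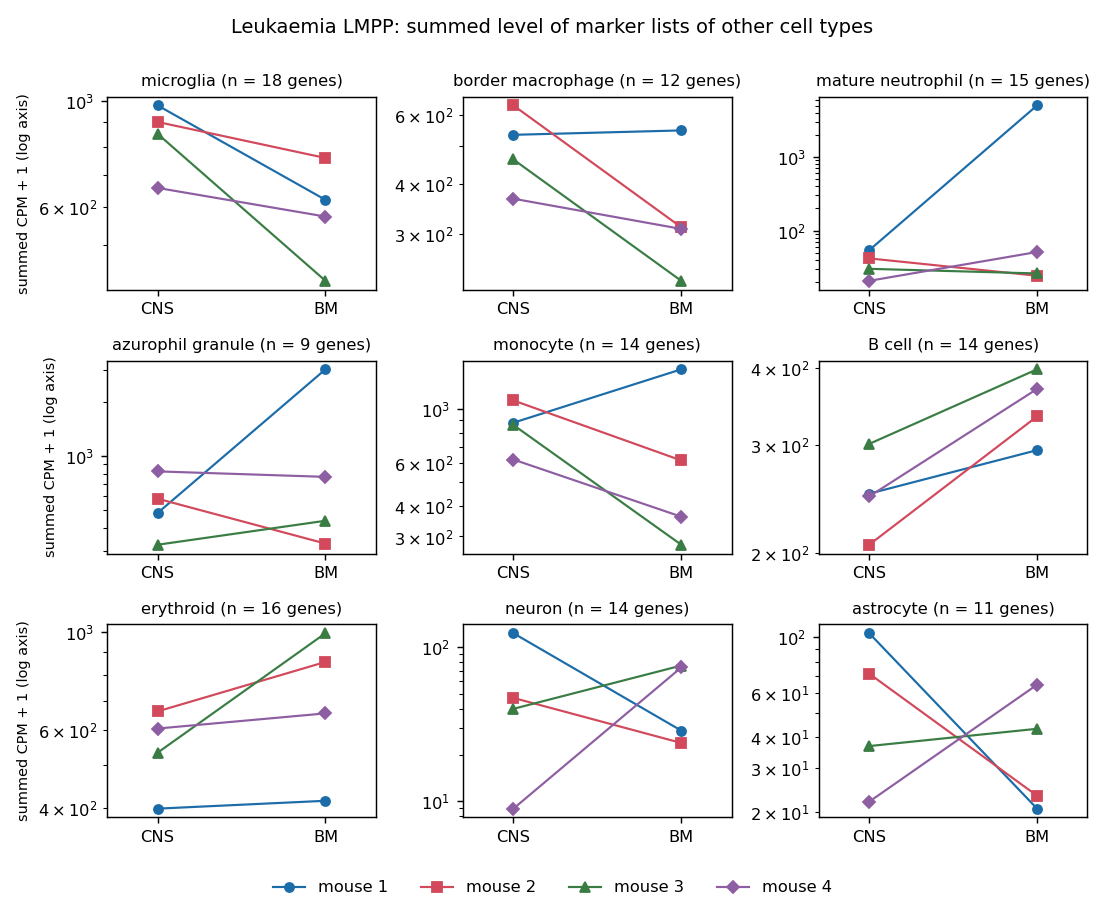
Summed CPM + 1, on a log axis, of 9 marker lists of other cell types in each leukaemia LMPP library, CNS on the left and BM on the right, with lines joining the libraries of a mouse. BM of mouse 1 stands apart for mature neutrophil genes at 5049 CPM, and neuron and astrocyte sums are highest in CNS of mouse 1.

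Whether the CNS difference of LMPP differed from that of the other gates was tested by interaction in the same fit. At an adjusted p under 0.05, 0 genes (0%) differed between LMPP and HSC/MPP and 0 (0%) between LMPP and LK/CLP by edgeR, with 712 and 815 at an unadjusted p under 0.05, which are 4.42% and 5.06% of genes. DESeq2 called 11 and 5. Of the 11 against HSC/MPP, 9 had a larger CNS over BM difference in LMPP and 2 a smaller one. The 5 against LK/CLP, named because they are the fewer, were Sema4a and Zbtb7b, with a larger difference in LMPP, and Sept8, Car2 and Klf1, with a smaller one. Nothing was therefore shown by edgeR to be particular to LMPP.

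The HSC/MPP and LK/CLP libraries came from 8 other mice. Background was estimated at 3.31 to 23.6% of counts in CNS and 8.60 to 25.6% in BM of HSC/MPP, and at 0.988 to 8.40% in CNS and 0.855 to 8.39% in BM of LK/CLP. Their fold changes were computed from other libraries than those of LMPP. However, all 24 leukaemia libraries entered the background filter and the spread of the test, so these gates also helped to set which genes were called. Within HSC/MPP alone 0 genes were called and within LK/CLP 1 (0.00621%), with 1039 (6.45%) and 643 (3.99%) at an unadjusted p under 0.05. Of the 252 genes that rose in LMPP, 239 (94.8%) were positive in HSC/MPP, against 48.4% of all genes, and 228 (90.5%) in LK/CLP, against 50.8%. Of the 53 that fell, 47 (88.7%) were negative in HSC/MPP and 51 (96.2%) in LK/CLP, against 51.6% and 49.2% of all genes. Their median log2 fold changes there were 0.46 and 0.35 for the genes that rose, and -0.34 and -0.27 for those that fell. These sizes are smaller than the 1.33 and -0.88 in LMPP, where the genes were selected for being large, and genes that move together are not independent of each other.

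List medians and single genes are set side by side for the 3 gates, without a test between lists. The median over type 1 conventional dendritic cell genes was 1.73 in LMPP, 0.78 in HSC/MPP and 0.52 in LK/CLP, and that over class II genes was 1.44, 0.70 and 0.42. Jun had 1.48 ± 0.32, 1.59 ± 0.32 and 0.66 ± 0.31 in LMPP, HSC/MPP and LK/CLP. Batf3 was 1.61 ± 0.38 in LMPP, 0.19 ± 0.40 in HSC/MPP and 0.37 ± 0.37 in LK/CLP. The plasmacytoid list had medians of -0.92, 0.29 and -0.29. Interactions for Jun and Batf3 did not pass the adjusted threshold.

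**Figure D5:**
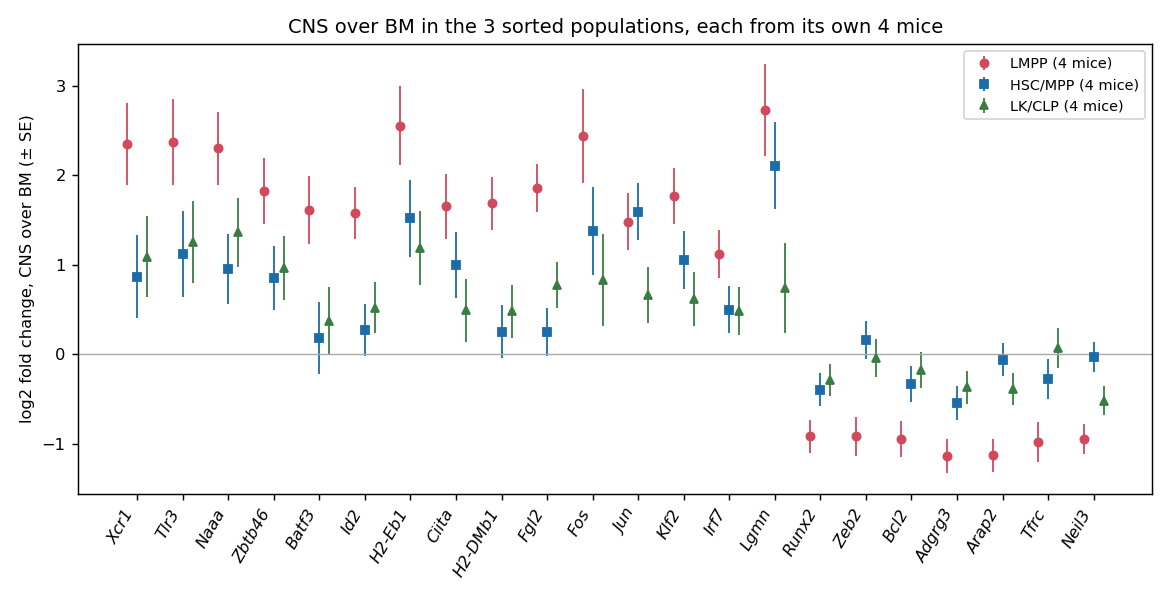
Log2 fold change of CNS over BM, with its SE, for 22 genes in LMPP, HSC/MPP and LK/CLP, each from its own 4 mice. Of the first 15 genes, which rose in LMPP, all lie above 0 in the other gates too, while Zeb2, Arap2, Tfrc and Neil3, which fell in LMPP, lie near 0 in at least 1 other gate.

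As background from non-leukaemic marrow, control LMPP had 17.9 to 71.1 CPM of H2-Eb1, 48.5 to 53.8 CPM of Ciita and 14.1 to 17.7 CPM of Xcr1 (n = 4 mice). Leukaemia CNS LMPP had 765 to 1848, 207 to 397 and 62.1 to 171 CPM, and leukaemia BM LMPP 95.7 to 1001.5, 54.1 to 229 and 8.42 to 45.4 CPM. The control libraries were scaled by themselves and 13.6 to 25.9% of their counts were estimated as background, so their levels are set beside the others without a test.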

How the data were processed

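Stranded total RNA libraries (SMARTer Pico kit) of sorted cells were made by the authors, per the labels' protocols. The authors deposited 2 tables of counts per gene identifier, 1 for the 24 leukaemia and 1 for the 12 control libraries; their names call them normalised, but they hold whole counts with differing totals, so they were treated as raw counts. The submitters' processing notes name DESeq2 and GRCm39, while no source used here states the aligner, counter or strand setting. Each library was matched to its labels, and 0 columns lacked a sample.

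Symbols and exon lengths came from GENCODE vM21 on GRCm38 and covered 52081 and 52133 of 55414 identifiers. Genes were tested (16099) where counts exceeded 3 times the background for their length, estimated from 1403 sensory receptor genes, plus 10 counts, in at least 4 libraries. edgeR 4.0.16 (R 4.3.3, TMM scaling, quasi-likelihood test) was fitted over the 24 leukaemia libraries with the mouse as a block and a CNS term for each cell type. P-values were adjusted by Benjamini-Hochberg over all genes tested, and limma 3.58.1 and DESeq2 1.42.0 served as alternatives. The procedure was also run on counts simulated from its own fitted model, which cannot test the choice of that model or of the pairing. CPM were computed with edgeR from TMM-scaled counts of tested genes; 3 counts correspond to 0.245 to 0.656 CPM in CNS LMPP and 0.161 to 2.43 CPM in BM LMPP, and such limits cover counting error only.

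Pairs come from mouse numbers in the labels. Deviations of CNS and BM from their group means correlated at 0.12, 0.431, -0.018 and -0.296 in mice 1 to 4. By these correlations, CNS of mice 1 to 4 matched BM of mice 4, 2, 2 and 3 best. Only mouse 2 thus matched its own BM best, although the calls rest on the pairing. Genes were named where they were among the 15 largest changes or 10 smallest p in a direction (called, at least 5 CPM, same direction in 4 of 4 mice), called members of 46 gene lists, the 3 most abundant others of a list, sort genes or defining markers; exceptions are stated. The comparison and the lists were chosen with earlier results of these data known.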

Additional observations from a re-analysis of the deposited data

Results flagged for a closer look

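In groups of 4 libraries, the highest or lowest library was set against the others with Dixon's test. This was done for part of the named genes and list sums, 186 groups in all. Chance alone would single out about 1 in 20 of these groups. The test singled out 15. BM of mouse 2 was far above the other 3 BM libraries for Cytip (189 CPM), Junb (65.4 CPM), Rnf145 (80.2 CPM), Fgl2 (191 CPM) and Antxr2 (86.2 CPM). The same library stood high for the summed levels of NF-kB genes (990.5 CPM), sort and surface markers (2095 CPM), integrins (4976 CPM), lysosomal genes (5757 CPM) and cholesterol synthesis genes (844 CPM). BM of mouse 3 was high for Rasgrp2 (345 CPM), and CNS of mouse 4 was high among CNS libraries for Tex2 (165 CPM). BM of mouse 1 was low for the plasmacytoid dendritic cell sum (1207 CPM) and high for the mature neutrophil sum (5049 CPM). CNS of mouse 1 stood apart for the heat shock sum (6274 CPM).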

How the results depend on the processing

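The count of 305 genes depended on several choices. Of the 93 named genes that passed, 0 changed direction under the alternatives in which they were tested. Direction could hardly change there, since the alternatives reuse the same LMPP counts and nearly all called genes had 1 direction in 4 of 4 mice. Without the replicate block, that is without pairing CNS and BM of a mouse, edgeR called 0 genes; it also called 0 with a plain minimum of 10 counts (where the median log2 fold change of the 40332 genes tested was 0.15, against 0.01 over the 16099), 0 from LMPP libraries alone with the block and 0 without it, and 0 without the LK/CLP libraries, where the smallest adjusted p was 0.0515. Without any filter it called 23, with a minimum of 5 CPM 651, and DESeq2 called 850. Median-of-ratios scaling gave 398, limma-voom 263 and the fit without HSC/MPP libraries 415. Leaving out mice 1 to 4 gave 0, 291, 0 and 288 genes, a range of 0 to 291. The interactions stayed at 0 genes except with DESeq2, at 11 against HSC/MPP and 5 against LK/CLP. Of the 93 named genes that passed, 93 lost the threshold in each fit with 0 calls, 80 without a filter, 22 without mouse 2, 17 without mouse 4, 12 with limma-voom and 1 without HSC/MPP. The cause of these differences was not tested. The interactions could not be fitted from LMPP libraries alone. Depth limits BM of mouse 3 most, where 3 counts equal 2.43 CPM.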
